A study of Cricetulus griseus with 24 samples.

Results

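Genes of DNA break repair and mismatch repair were examined in RNA-seq counts of Chinese hamster ovary (CHO) cells, a host for antibody production. The genes were taken by symbol from a list of 38 members. Of these, 36 had counts among the 28037 genes of the table, while Xrcc4 and Atm were not analysed here. By role, 6 of the 36 act in break sensing and signalling, 4 in end resection or as helicases, 12 in homologous recombination, 8 in end joining, 4 in the Fanconi pathway and 2 in mismatch repair.

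The lines were A0, an antibody-producing CHO DG44 clone, A1, its progeny amplified with methotrexate (MTX), and CHO-S, a separate CHO line that does not produce the antibody. The titles of the CHO-S samples carry the name NDST, which the sources used here do not explain, so a further change in these cells cannot be told apart from the line. A0 and A1 both carry a plasmid with the antibody heavy chain and a plasmid with the light chain and neomycin phosphotransferase. Both descend from cells selected with G418. A1 was then selected in steps of rising MTX, an antifolate, and the sources used here do not say whether MTX was present at sampling. A0 and A1 were grown in suspension in serum-free medium, while the medium of CHO-S is not given in the sources used here. All were sampled in exponential and in stationary phase. There were 4 A0 and 3 A1 cultures at each phase and 3 CHO-S cultures at each phase. Each A0 exponential culture had 2 libraries, which were summed. The titles mark a library of cultures 1 and 2 as RLT and of cultures 3 and 4 as Duplicate, terms that the sources used here do not explain. The study's methods describe triplicate flask cultures of each line, whereas the labels number 4 for A0 and do not tie a number to a flask, so p-values measure the spread between these samples, which may be technical in part. A0 and A1 are 1 parent clone and 1 amplified line, so a difference between them is a difference between these 2 lines.

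A break across both DNA strands is sensed by the MRN complex, made of Mre11a, Rad50 and Nbn, and signalled through kinases such as Atr, Chek1 and Chek2. It is then rejoined directly, by non-homologous end joining, or copied from an intact template, by homologous recombination, which needs resection of the ends and acts mainly in S and G2 phase. Fanconi proteins act on crosslinked DNA and stalled replication forks, and mismatch repair removes errors left by replication. Transcripts of many recombination and Fanconi genes are known to rise and fall with the cell cycle. Gene amplification, as under MTX selection, involves breaks and their repair, which is background and not a result of these data.

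Total counts on genes ranged from 6532373 to 14652646 per library in 23 of the 24 libraries. Stationary CHO-S culture 1 had 1038026 counts and stood apart, with 32.8% of its reads outside genes. Results that rest on it are given with and without it. As a check of the labels, the summed level of 4 mesenchymal genes known from cultured CHO cells was 2130 to 6570 CPM (counts scaled to library size with TMM factors over all 20 cultures), while 4 blood genes summed to at most 0.279 CPM and the 2 measured epithelial genes to at most 3.77 CPM. The loci of 14 of the 36 members overlap another gene in the RefSeq table of assembly CriGri-PICRH-1.0. These include Fanci with Polg, Fanca with Znf276, Rad54l with Lrrc41, Xrcc3 with Klc1 and Lig4 with Tlr2. The strand setting of the counting is not given in the sources used here, so reads of such pairs cannot be told apart. As levels are not scaled by gene length, they are compared between cultures and not between genes.

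The comparison of A1 with A0 addresses what differs between an amplified line and its parent. In stationary phase 21 of the 36 members differed, with an adjusted p under the threshold of 0.05 (edgeR), of which 16 were higher and 5 lower in A1. Of all genes tested, 33.7% differed, 16% higher and 17.7% lower. With A0 cultures 1 and 2 alone, 25 members were higher and 5 lower, against 41.8% of all genes called. With A0 cultures 3 and 4 alone, 15 were higher and 7 lower, against 37.3%. The median log2 fold change of the members was 0.306, against -0.002 over all genes. By role, 7 of 12 recombination genes, 3 of 4 Fanconi genes, 3 of 4 resection and helicase genes and 3 of 6 sensing genes were higher. Of the end joining genes, 3 of 8 were lower and 0 higher (0 also at an unadjusted p under 0.05 and by DESeq2). The groups did not overlap for 20 members, against 39.9% of all genes.

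The Fanconi genes held the largest difference. Fanci encodes a subunit of the clamp that is ubiquitinated at crosslinks. In stationary phase it was at 12.8, 10.6, 18.6 and 17.9 CPM in the 4 A0 cultures and at 41.0, 37.8 and 34.8 CPM in the 3 A1 cultures. The A1 values were all above the A0 values, with a log2 fold change of 1.32 ± 0.16 (SE, edgeR adjusted p = 2.4e-05). Fanca, a scaffold of the core complex that ubiquitinates the clamp, had 10.7, 12.1, 15.6 and 18.6 CPM in A0 and 25.9, 32.2 and 27.6 CPM in A1. These groups did not overlap either (log2 0.99 ± 0.16, edgeR adjusted p = 0.00027). Fancd2, the partner of Fanci in the clamp, was higher by 0.54 ± 0.10 on the log2 scale, whereas Fancc, another subunit of the core complex, gave 0.23 ± 0.17 and did not pass.

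Among recombination genes, Rad54l, a motor protein of strand invasion, was at 15.8, 12.6, 22.2 and 25.8 CPM in stationary A0. In stationary A1 it was at 42.2, 39.6 and 38.2 CPM, all above A0 (log2 1.05 ± 0.18, edgeR adjusted p = 0.0004). Rad51ap1, which stimulates strand exchange, had 14.1, 13.8, 12.2 and 19.9 CPM in A0 and 26.4, 27.5 and 26.1 CPM in A1. The A1 cultures were again all higher, and lay closer together than the A0 cultures (log2 0.82 ± 0.14). Xrcc3, which acts in strand exchange, was at 4.09, 2.69, 5.14 and 4.50 CPM in A0 and at 6.97, 9.51 and 6.58 CPM in A1. This is a low level, with groups that did not overlap (log2 0.90 ± 0.21, edgeR adjusted p = 0.0045), and the adjusted p was 0.052 without A1 culture 2, which was the highest. Rad51c had 11.2, 12, 16.5 and 19.6 CPM in A0 and 26, 23.5 and 24.2 CPM in A1, with every A1 culture above A0 (log2 0.71 ± 0.16). Rad51b was higher by 0.56 ± 0.12 and Palb2, which joins Brca1 to Brca2, by 0.54 ± 0.14 on the log2 scale. Xrcc2 gave 0.35 ± 0.22, Brca2, a recombination mediator, 0.15 ± 0.16, and Rad52, an annealing factor, -0.09 ± 0.10, and none of these passed.

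Exo1, the nuclease of long-range resection, was at 8.93, 9.83, 13.5 and 12.4 CPM in stationary A0 and at 22.3, 23.7 and 22.9 CPM in stationary A1. The A1 level was thus well clear of every A0 culture (log2 1.03 ± 0.14, edgeR adjusted p = 6.2e-05). Blm, a helicase of resection and junction dissolution, was higher by 0.51 ± 0.14 and Rbbp8, which starts resection, by 0.26 ± 0.08 on the log2 scale. In the MRN complex Rad50 was higher by 0.68 ± 0.09, Nbn by 0.46 ± 0.09 and Mre11a by 0.25 ± 0.09. The call for Mre11a was lost (adjusted p 0.052 to 0.2) in 6 of the 7 fits that left out 1 culture. Atr, Chek1 and Chek2 gave 0.26 ± 0.18, -0.06 ± 0.13 and -0.11 ± 0.12 and did not pass.

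Of the end joining genes, Lig4, the ligase of the pathway, was lower in stationary A1, at 12.5, 19.3 and 14.2 CPM against 24.6, 22.9, 22.6 and 23.6 CPM in A0 (log2 -0.61 ± 0.13). Xrcc5, which encodes Ku80 of the Ku heterodimer that binds ends, was lower at -0.38 ± 0.08, while its partner Xrcc6, or Ku70, gave 0.23 ± 0.14. Prkdc, the catalytic subunit of the kinase that Ku recruits, was lower at -0.32 ± 0.10, although the groups overlapped. Nhej1, a scaffold beside Lig4, gave 0.47 ± 0.25, the nuclease Dclre1c -0.02 ± 0.15, Parp1, a sensor of breaks, -0.04 ± 0.07, and Polq, the polymerase of microhomology-mediated joining, 0.41 ± 0.24. None of these 4 passed. Wrn, a helicase and nuclease, was also lower in A1 (log2 -0.38 ± 0.10), as was Brca1, the ubiquitin ligase subunit that favours resection (-0.36 ± 0.07).

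In exponential phase the picture differed. Of the 36 members, 12 differed between A1 and A0, 2 higher and 10 lower, against 25.9% of all genes, 12% higher and 13.8% lower. The median log2 fold change was -0.116, against -0.039 over all genes, and 14 members had groups that did not overlap, against 34.4% of all genes. Without A1 culture 3 the count was 7, against 16% of all genes. The 4 Fanconi genes gave 0 calls by edgeR and by DESeq2, with 2 higher at an unadjusted p under 0.05 by either tool.

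Lower in exponential A1 were both measured checkpoint kinases downstream of Atr and Atm. The values per culture for the genes of this paragraph other than Rad51d and Bard1 are given because of their exponential fold changes, and were chosen after the values were seen. Chek1 was at 121, 121, 121 and 108 CPM in A0 and at 74.8, 83.7 and 76.9 CPM in A1 (log2 -0.58 ± 0.09, edgeR adjusted p = 0.00024). Chek2 was at 48.7, 46.2, 45.1 and 45.5 CPM in A0 and at 30.5, 34.8 and 31.0 CPM in A1 (log2 -0.53 ± 0.09). Neither gene's groups overlapped. Brca2 stood at 82.2, 99.8, 96.6 and 103 CPM in A0 and at 66.3, 68.3 and 58.7 CPM in A1, again without overlap (log2 -0.57 ± 0.10). Lig4 (-0.55 ± 0.13), Rad52 (-0.52 ± 0.12), Polq (-0.47 ± 0.12), Bard1, the partner of Brca1 (-0.41 ± 0.14), and Wrn (-0.29 ± 0.10) were also lower on the log2 scale. The calls for Bard1, Wrn and the mismatch repair gene Msh6 were lost in 4 or 5 of the 7 fits that left out 1 culture.

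The 2 genes that were higher in exponential A1 were Rad51d and Nbn. Rad51d, a recombination mediator, was at 23.1, 25.7, 19.1 and 24.7 CPM in A0 and at 48.3, 47.9 and 51.4 CPM in A1. Every A1 culture was thus far above every A0 culture (log2 1.08 ± 0.11, edgeR adjusted p = 6.4e-06). In stationary phase it was at 27.5, 23.2, 21.5 and 23.2 CPM in A0 and at 40.1, 42.8 and 40.5 CPM in A1 (log2 0.78 ± 0.10, edgeR adjusted p = 3.2e-05). Nbn was higher by 0.55 ± 0.10 in exponential phase. Rad51d, Nbn, Lig4 and Wrn were the 4 members called at both phases, and all kept 1 direction. They are 4 of the 12 exponential and 4 of the 21 stationary calls. The share of all genes called at both phases was not computed, so no result about the members is read from this count. The plot of A1 against A0 shows the members at both phases.

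**Figure D1:**
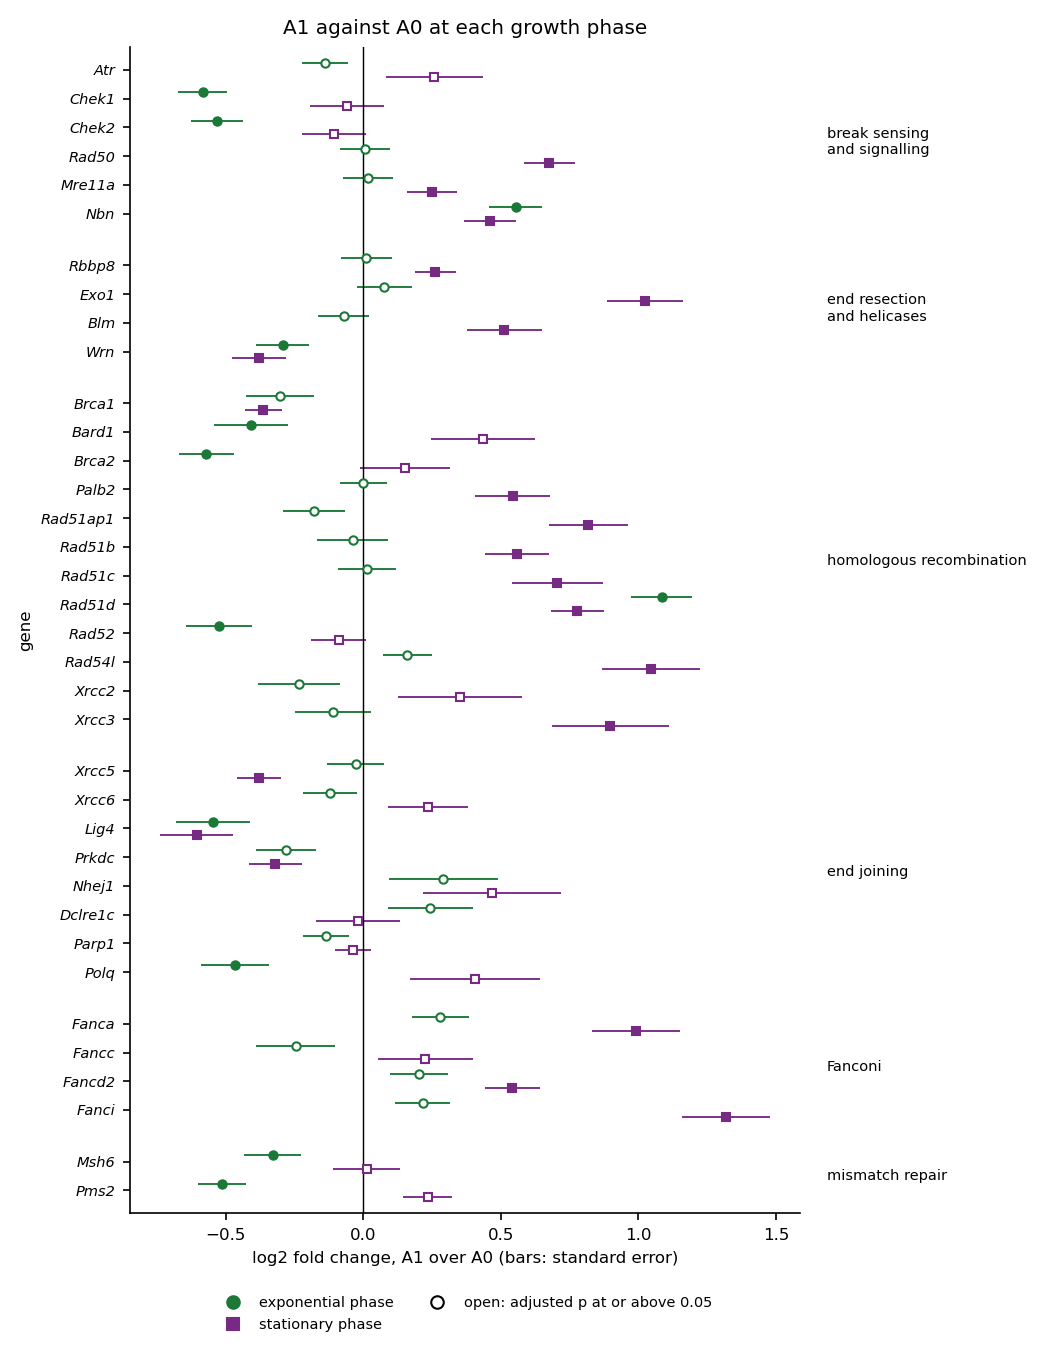
Log2 fold change of A1 over A0 (horizontal axis) for the 36 members, grouped by role, in exponential phase (circles) and stationary phase (squares), with bars for the standard error and filled symbols for an adjusted p under 0.05 (edgeR, 4 A0 and 3 A1 cultures a phase). Most filled squares lie to the right of 0 (16 of 21) and most filled circles to the left (10 of 12), with Rad51d on the right at both phases.

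Whether the difference between the lines itself changed with phase was tested as an interaction over the 14 cultures of A0 and A1, which uses the same cultures as the comparisons above. It was positive, that is, A1 over A0 was greater in stationary than in exponential phase, for 15 of the 36 members. None was negative by edgeR or DESeq2, and 1 was negative at an unadjusted p under 0.05 by either tool. Of all genes, 8.94% were called, 5.04% positive and 3.9% negative. The members' median was 0.455, against 0.017 over all genes. Recombination genes gave 8 of the calls among 12 tested. The 8 end joining genes gave 0 by edgeR, with 1 positive and 1 negative at an unadjusted p under 0.05, and 1 positive call by DESeq2. The number called depended on which cultures were used. It was 27, 26 of them positive, with A0 cultures 1 and 2 alone, against 22.7% of all genes called. With A0 cultures 3 and 4 alone it was 13, 12 of them positive, against 9.06% of all genes. Leaving out A0 stationary culture 1 or 2, or A1 exponential culture 1 or 2, gave 9, A1 stationary culture 1 gave 8, and A1 exponential culture 3 or A1 stationary culture 2 gave 7. The fits without 1 of the other 7 cultures gave 10 to 18, with 1 negative without A0 exponential culture 1. Over all fits that left out 1 culture, 4.81% to 12.8% of all genes were called. With the culture number within each line as a block the count was 22, all positive, against 16.4% of all genes.

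The interaction was 1.10 ± 0.19 for Fanci (edgeR adjusted p = 0.0008), 1.01 ± 0.25 for Xrcc3, 1.00 ± 0.19 for Rad51ap1, 0.95 ± 0.17 for Exo1 and 0.89 ± 0.20 for Rad54l, all on the log2 scale. Bard1, the sixth in size, gave 0.85 ± 0.24 (edgeR adjusted p = 0.03). It was at 33.0, 36.4, 50.4 and 39.2 CPM in exponential A0 and at 26.3, 32.9 and 30.6 CPM in exponential A1. In stationary phase it was at 15, 17.8, 28.8 and 28.2 CPM in A0 and at 32.7, 27.8 and 32.0 CPM in A1. So Bard1 was lower in A1 in exponential phase. In stationary phase it did not pass between the lines, and 1 A1 culture lay inside the A0 range. Its stationary log2 fold change was 0.88 ± 0.12 with A0 cultures 1 and 2 alone and 0.10 ± 0.10 with cultures 3 and 4 alone. The other positive members were Pms2 (0.75 ± 0.12), Brca2 (0.72 ± 0.20), Fanca (0.71 ± 0.19), Rad51c (0.69 ± 0.20), Rad50 (0.67 ± 0.13), Rad51b (0.60 ± 0.18), Blm (0.59 ± 0.17), Palb2 (0.54 ± 0.17) and Chek1 (0.53 ± 0.16). Fanci, Rad51ap1, Exo1, Rad54l, Rad50 and Pms2 kept the call in all 14 fits that left out 1 culture.

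Of the 15 members with a positive interaction, Bard1, Brca2, Chek1 and Pms2 were lower in A1 in exponential phase and the others did not pass between the lines there. Fanci was at 43.1, 50.4, 48.3 and 51.3 CPM in A0 and at 61.4, 55.6 and 51.2 CPM in A1. Exo1 was at 24.1, 26.1, 24.8 and 27.2 CPM in A0 and at 25.4, 28.3 and 27.1 CPM in A1. Both ranges overlapped. Rad54l was at 49.4, 49.4, 45.8 and 44.1 CPM in A0 and slightly higher, at 51.7, 53.3 and 53.4 CPM, in A1, without a call (log2 0.16 ± 0.09). Fanca was at 31.6, 32.3, 38.6 and 37.6 CPM in A0 and at 45.6, 40.4 and 41.6 CPM in A1, where the adjusted p was 0.059 (log2 0.28 ± 0.10). The ranges of Rad54l and Fanca did not overlap, whereas those of Rad51ap1, Rad51c, Xrcc3, Rad50, Rad51b, Blm and Palb2 did. Values of Rad51ap1, Rad51c and Xrcc3 follow. Rad51ap1 was at 44.7, 41.1, 36.6 and 32.8 CPM in A0 and at 34.0, 33.5 and 35.4 CPM in A1. Rad51c was at 29.0, 28.6, 28.9 and 23.9 CPM in A0 and at 26.6, 27.6 and 29.4 CPM in A1. Xrcc3 was at 9.70, 9.83, 9.55 and 11.3 CPM in A0 and at 10.3, 9.56 and 8.23 CPM in A1. The plot of levels by culture shows these genes in all 6 groups.

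**Figure D2:**
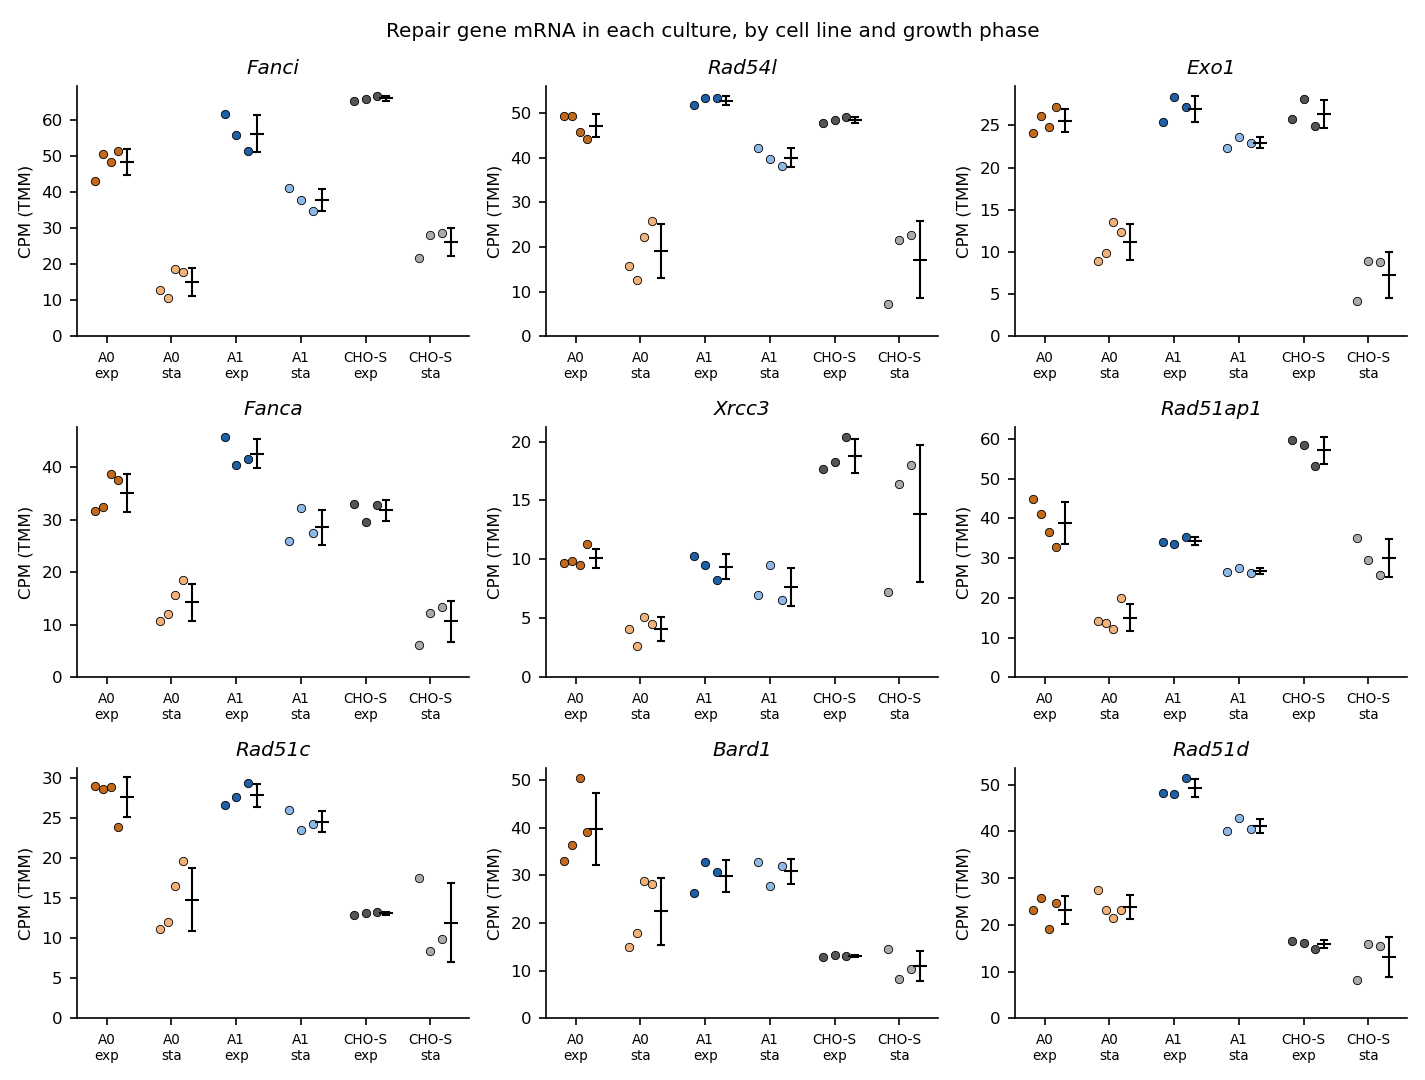
Level of 9 members in each culture (vertical axis, TMM-normalized CPM from 0) in exponential (exp) and stationary (sta) phase of A0, A1 and CHO-S, with 1 point per culture and, beside the points, the mean with its SD (n = 4 for A0, 3 for A1 and CHO-S). Fanci, Rad54l and Exo1 are near each other in exponential A0 and A1 and apart in stationary phase, while Rad51d is higher in A1 at both.

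Genes of the cell cycle were read beside these results. A list of 26 genes of S phase and mitosis, none of them a member, summed to 7200 to 7856 CPM in exponential A0 and 6526 to 6640 CPM in exponential A1. In stationary phase the sums were 2237 to 3726 CPM in A0 and 4173 to 4413 CPM in A1. In stationary phase 17 of the 26 were higher in A1 and 0 lower (0 also at an unadjusted p under 0.05 and by DESeq2), with a median of 0.536. For the interaction 16 of 26 were positive, with a median of 0.725, above that of the members. In exponential phase 4 were higher and 9 lower. Of all genes, 16% were higher and 17.7% lower in stationary phase, and 12% and 13.8% in exponential phase. For the interaction 5.04% of all genes were positive and 3.9% negative. The part of the S phase and mitosis genes in the members' differences was not tested. In bulk RNA, fewer cells in a stage of the cycle and less RNA per cell cannot be told apart.

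From exponential to stationary phase, 28 of the 36 members fell in A0 and 1 rose, against 37.7% of all genes called, 20.1% that fell and 17.7% that rose, and the median log2 change was -0.751. Fanci fell most, with -1.70 ± 0.15, followed by Rad51ap1 (-1.38 ± 0.15), Rad54l (-1.31 ± 0.17), Fanca and Xrcc3 (-1.30 ± 0.15 and -1.30 ± 0.18), Brca2 (-1.21 ± 0.16) and Exo1 (-1.20 ± 0.13). Pms2 (-1.01 ± 0.09), Chek1 (-0.99 ± 0.13) and Mre11a (-0.94 ± 0.10) also fell. The gene that rose was Prkdc, from 52.4, 63.8, 70.6 and 70.0 CPM to 81.8, 103, 101 and 104 CPM (log2 0.59 ± 0.11, edgeR adjusted p = 0.00057). Its lowest stationary culture was still above its highest exponential culture. Wrn, Brca1, Rad51b, Rad51d, Xrcc5, Dclre1c and Parp1 did not pass. Of the S phase and mitosis list, 25 of 26 fell, with a median of -1.403.

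In A1, 18 members fell and 2 rose, against 33.4% of all genes called, 17.8% that fell and 15.6% that rose, with a median of -0.231. Mre11a fell by 0.67 on the log2 scale (SE 0.07), Fanci by 0.56 (SE 0.08), Fanca by 0.54 (SE 0.09) and Nbn by 0.51 (SE 0.08). Prkdc rose by 0.59 ± 0.07, from 54.0, 54.5 and 50.0 CPM to 85.6, 72.9 and 78.3 CPM. The other gene that rose was Rad51b (0.37 ± 0.09), which was at 19.6, 21 and 19.9 CPM in exponential and 25.3, 25.1 and 26.4 CPM in stationary A1. Exo1 (-0.21 ± 0.09), Rad50 (-0.17 ± 0.07), Rad51c (-0.17 ± 0.09), Palb2 (-0.10 ± 0.07), Bard1 (0.05 ± 0.09) and Blm (0.02 ± 0.07) did not pass. The S phase and mitosis list fell in A1 as well, at 25 of 26 genes with a median of -0.707, so that its part in the members' changes was not tested in either line.

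In CHO-S, 22 members fell and 0 rose (0 also at an unadjusted p under 0.05 and by DESeq2), against 13.3% of all genes called, 6.48% that fell and 6.81% that rose. Without stationary culture 1 there were 31 that fell, against 47.7% of all genes called and 24.7% that fell, with a median of -0.815. Without any other CHO-S culture the count was between 0 and 6, against 0% to 3.36% of all genes called. Without stationary culture 1, Exo1 fell by 1.56 on the log2 scale (SE 0.11), Xrcc2 by 1.47 (SE 0.17), Fancc by 1.41 (SE 0.17) and Fanca by 1.32 (SE 0.10). Prkdc gave -0.03 ± 0.06 in that fit. Parp1, which did not pass in A0 or A1, fell by 0.47 (SE 0.05), from 262, 279 and 266 CPM to 193 and 195 CPM, and was at 135 CPM in culture 1. Brca1 fell by 0.72 (SE 0.05) in CHO-S, while it gave 0.05 ± 0.12 in A0 and 0.03 ± 0.06 in A1.

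**Figure D3:**
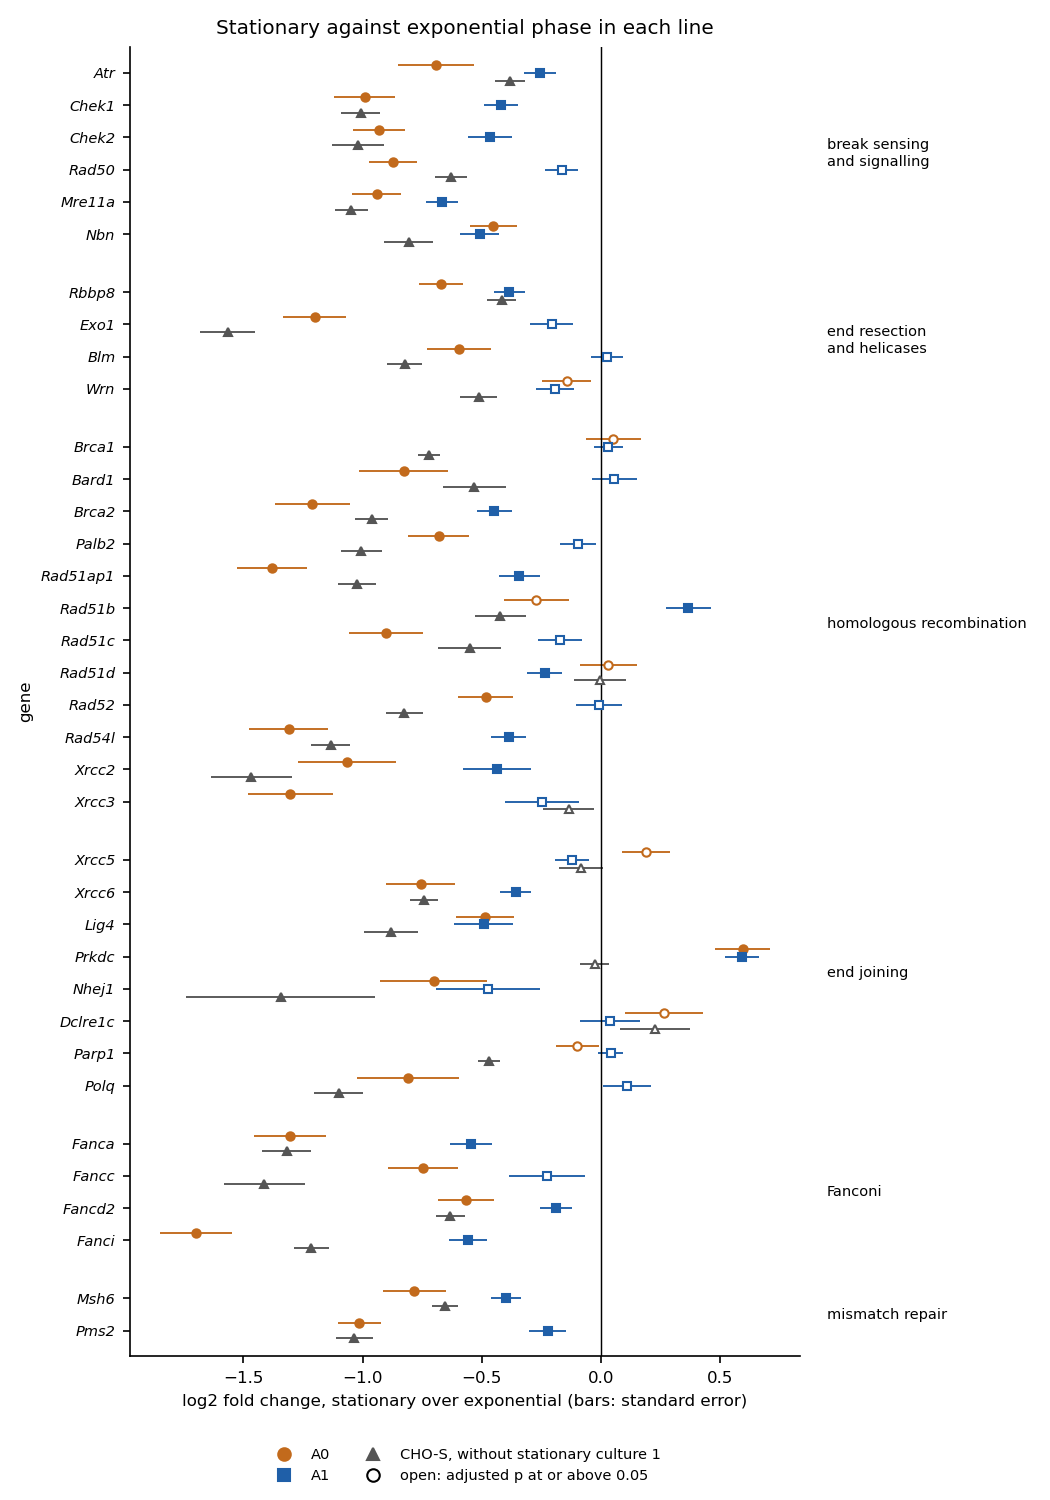
Log2 fold change of stationary over exponential phase (horizontal axis) for the 36 members in A0 (circles), A1 (squares) and CHO-S without stationary culture 1 (triangles), with bars for the standard error and filled symbols for an adjusted p under 0.05 (edgeR). Most symbols lie to the left of 0, squares nearer to 0 than circles for most genes, and Prkdc is to the right in A0 and A1.

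These phase changes were compared between lines as interactions. A1 against CHO-S gave 15 members with a positive value and 0 negative (0 also at an unadjusted p under 0.05 and by DESeq2), against 7.6% of all genes called, 3.83% positive and 3.77% negative. Without stationary CHO-S culture 1 there were 26, all positive, against 25.4% of all genes called, 13% positive and 12.4% negative. Exo1 gave 1.34 ± 0.15, Polq 1.19 ± 0.15, Fancc 1.16 ± 0.24 and Palb2 0.89 ± 0.12 in that fit. The count was 9 without A1 exponential culture 3 and without CHO-S exponential culture 2 or 3, against 4.01% to 4.38% of all genes. A0 against CHO-S gave 2 calls, against 10.3% of all genes (3.78% positive and 6.57% negative), which were Brca1 (0.66 ± 0.19) and Xrcc3 (-1.08 ± 0.28). Without stationary CHO-S culture 1 there were 4, against 17.2% (8.43% positive and 8.75% negative), with Prkdc (0.67 ± 0.16) and Parp1 (0.42 ± 0.12) added. Leaving out any of 10 other cultures gave 0 or 1, the counts of 0 being 6 or 7 at an unadjusted p under 0.05. Of all genes, 6.61% to 9.76% were called in those fits. Both interactions share the CHO-S cultures.

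Both antibody lines were also set beside CHO-S. The lines differ in origin as well as in the antibody and, for A1, in MTX selection, which cannot be told apart, and both comparisons share the CHO-S cultures. In exponential phase A0 differed from CHO-S in 23 members, 17 higher and 6 lower, against 49.5% of all genes (27.6% higher and 21.9% lower). A1 differed in 28, 15 higher and 13 lower, against 57.2% of all genes (30% higher and 27.1% lower). The median over all genes was 0.144 for A0, above that of the other comparisons, and 0.028 for genes at 5 CPM or more.

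Over both lines and phases, the 4 members with the largest log2 fold change that passed against CHO-S were Xrcc3, Nhej1, Bard1 and Rad51d. Xrcc3 was lower in both lines, since CHO-S had 17.6, 18.3 and 20.4 CPM in exponential and 7.22, 16.4 and 18 CPM in stationary phase, culture 1 being the low one. The log2 fold change was -0.88 ± 0.11 for A0 and -1.01 ± 0.11 for A1 in exponential phase, and -1.93 ± 0.27 and -1.05 ± 0.24 in stationary phase. Bard1 was at 12.9, 13.4 and 13 CPM in exponential and 14.4, 8.21 and 10.4 CPM in stationary CHO-S. No culture of A0 or A1 was that low, and A0 was higher by 1.61 ± 0.14 and A1 by 1.19 ± 0.09 on the log2 scale in exponential phase. Rad51d was at 16.4, 16.2 and 14.8 CPM in exponential and 8.26, 15.9 and 15.4 CPM in stationary CHO-S. It was thus lowest in CHO-S, with A0 higher by 0.56 ± 0.12 and A1 by 1.63 ± 0.08 in exponential phase.

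Nhej1 was low throughout. In CHO-S it was at 1.86, 1.75 and 1.90 CPM in exponential and at 0, 0.44 and 1.22 CPM in stationary phase, where culture 1 had no count. In A0 it was at 2.89, 2.52, 3.08 and 3.78 CPM in exponential and at 1.40, 1.93, 1.79 and 2.40 CPM in stationary phase. A1 had 4.01, 3.33 and 3.89 CPM and 2.13, 2.91 and 2.75 CPM. So every A0 and A1 culture lay above every CHO-S culture of its phase, with 0.74 ± 0.21 for A0 and 1.02 ± 0.21 for A1 on the log2 scale in exponential phase. In stationary phase the values were 1.41 ± 0.47 (edgeR adjusted p = 0.035) and 1.91 ± 0.44 (adjusted p = 0.01), against CHO-S cultures with 0, 6 and 9 counts. Neither passed without CHO-S culture 2 (adjusted p = 0.26 and 0.11), and the value for A0 was also lost without A0 culture 2, 3 or 4.

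Among the other end joining genes, Xrcc5 stood at 25.3, 25.2 and 27.3 CPM in exponential CHO-S, against 62.5, 55.0, 50.7 and 49.0 CPM in A0 and 51.0, 55.6 and 53.4 CPM in A1. It is shown for its difference, chosen after the values were seen, which was 1.08 ± 0.11 for A0 and 1.03 ± 0.07 for A1 on the log2 scale, without overlap. Its partner Xrcc6 gave -0.11 ± 0.09 for A0 and was lower in A1 by 0.24 (SE 0.05). Parp1 and Dclre1c were higher in both lines, by 0.47 ± 0.08 and 0.47 ± 0.16 in A0 and by 0.32 ± 0.04 and 0.70 ± 0.12 in A1. Chek1 was higher by 1.24 ± 0.09 in A0 and 0.64 ± 0.06 in A1, and Rad51c by 1.09 ± 0.11 and 1.08 ± 0.09. Brca2 was on opposite sides, higher by 0.42 ± 0.09 in A0 and lower by 0.16 (SE 0.06) in A1. Lower than in CHO-S in both lines were Rad52 (-0.60 ± 0.11 and -1.14 ± 0.07), Brca1 (-0.49 ± 0.12 and -0.81 ± 0.05), Rad51ap1 (-0.54 ± 0.11 and -0.74 ± 0.07), Fancd2 (-0.55 ± 0.10 and -0.37 ± 0.05) and Fanci (-0.44 ± 0.09 and -0.24 ± 0.06).

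**Figure D4:**
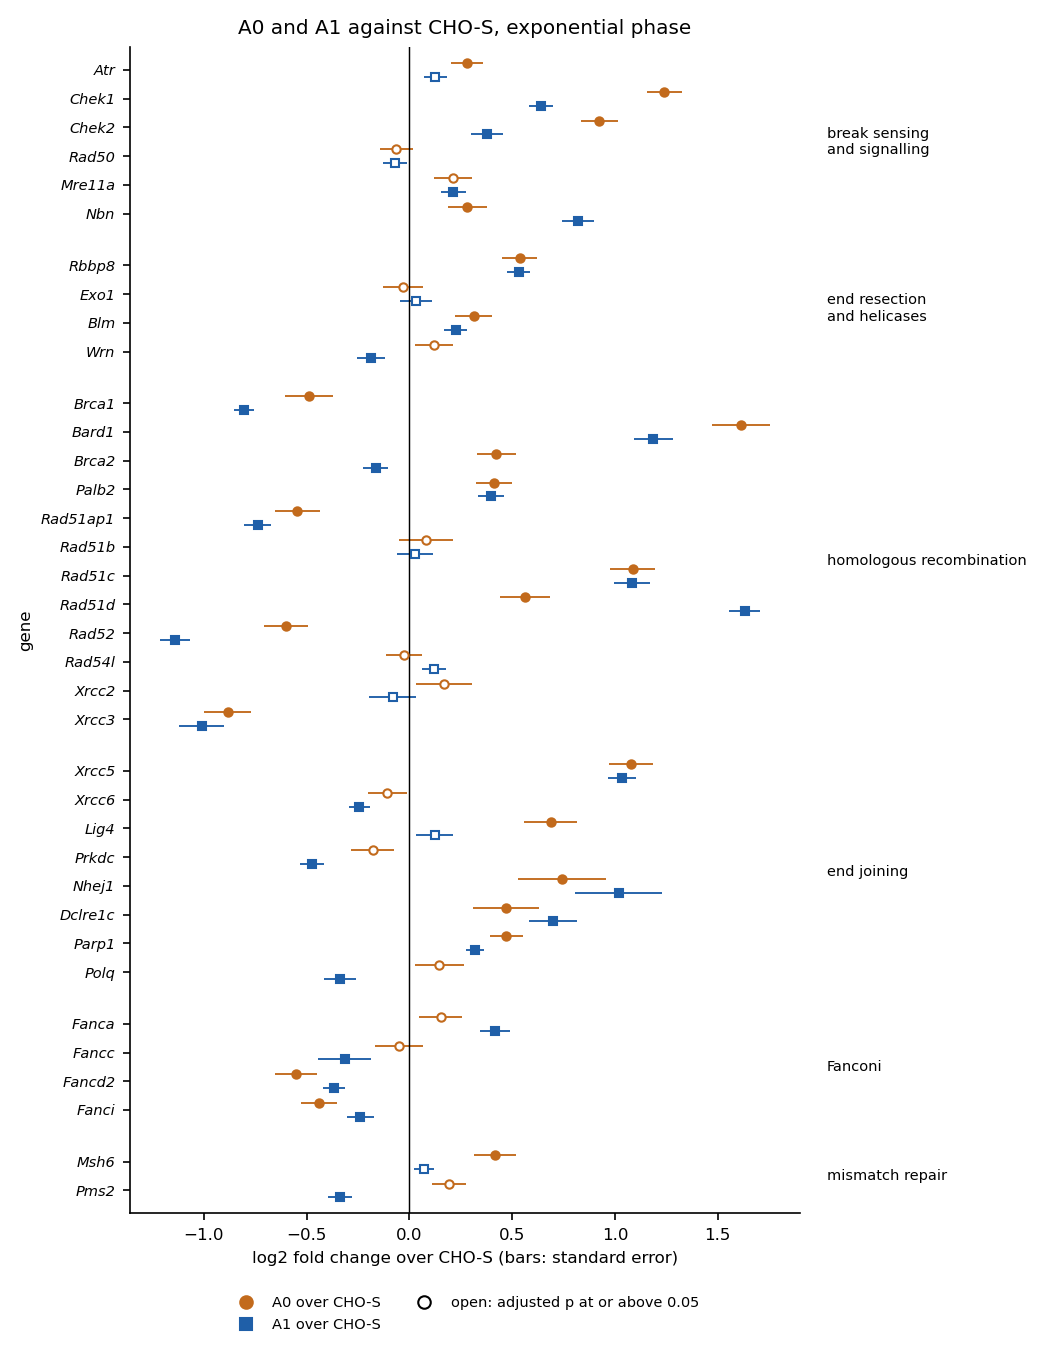
Log2 fold change over CHO-S in exponential phase (horizontal axis) for the 36 members in A0 (circles) and A1 (squares), with bars for the standard error and filled symbols for an adjusted p under 0.05 (edgeR, 4 A0, 3 A1 and 3 shared CHO-S cultures). Bard1, Rad51c, Rad51d and Xrcc5 lie to the right in both lines, and Xrcc3, Rad52 and Brca1 to the left.

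In stationary phase A0 differed from CHO-S in 15 members, 11 higher and 4 lower, against 40.0% of all genes (20.7% higher and 19.3% lower). Without CHO-S culture 1 there were 24, 19 higher and 5 lower, against 51.8% (28% higher and 23.8% lower). A1 differed in 21, 20 higher and 1 lower, against 34.8% (18.2% higher and 16.6% lower). Without that culture there were 30, 28 higher and 2 lower, against 57.4% (29.9% higher and 27.5% lower). Without it, Palb2 was higher in A1 by 1.26 ± 0.10, Exo1 by 1.35 ± 0.14, Fanca by 1.15 ± 0.13 and Polq by 0.84 ± 0.13 on the log2 scale. For A0, Exo1 (0.36 ± 0.19), Fanca (0.18 ± 0.21) and Polq (0.47 ± 0.31) did not pass in that fit. Atr gave -0.01 ± 0.22 in A0 and was higher by 0.21 ± 0.08 in A1. Rad50 depended on culture 1, which had 192 CPM against 45.7 and 53.2 CPM in the others. It was lower in A0 by 1.20 (SE 0.42) with that culture and by 0.30 (SE 0.12) without it, and in A1 it gave -0.53 ± 0.50 with it and was higher by 0.35 ± 0.09 without it.

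The 2 mismatch repair members act in different complexes, Msh6 in recognition and Pms2 in incision. Their values per culture were chosen after they were seen. Pms2 was at 67.7, 62.2, 65.1 and 67.2 CPM in exponential A0 and at 46.0, 46.8 and 45.0 CPM in exponential A1, with no overlap (log2 -0.51 ± 0.09, edgeR adjusted p = 0.00051). In stationary phase it was at 32.4, 30.9, 34.9 and 32.6 CPM in A0 and at 39.0, 41.9 and 35.5 CPM in A1 (0.23 ± 0.09, adjusted p = 0.06). Msh6 was lower in exponential A1 (log2 -0.33 ± 0.10), and gave 0.01 ± 0.12 in stationary phase, where A0 cultures 1 and 2 were at 92.5 and 85.6 CPM and cultures 3 and 4 at 115 and 131 CPM.

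Msh3, another mismatch recognition gene, is no member and was singled out after its values were seen. It had 0 counts in every A0 culture at both phases and in every stationary A1 culture. In exponential A1 it had 8 counts in culture 1 and 0 in the other 2. CHO-S had 729, 650 and 738 counts in exponential and 31, 594 and 314 counts in stationary phase, that is, 52.1, 54.3 and 56.0 CPM and 32.0, 43.5 and 42.5 CPM. Set against a floor of 3 counts per culture, Msh3 was at least 446-fold lower in exponential A0, at least 159-fold lower in stationary A0 and at least 129-fold lower in stationary A1 than in CHO-S of the same phase. The plot of mismatch repair genes shows it beside the members.

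**Figure D5:**
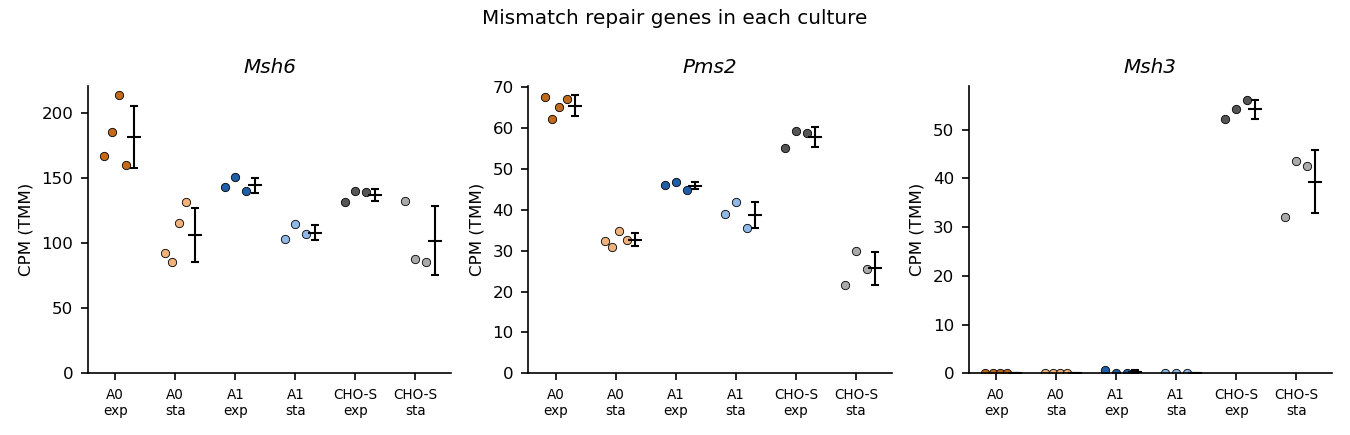
Level in each culture (vertical axis, TMM-normalized CPM from 0, a separate scale for each gene) of Msh6, Pms2 and Msh3 in exponential (exp) and stationary (sta) phase of A0, A1 and CHO-S, with points for cultures and, beside them, the mean with its SD (n = 4 for A0, 3 for A1 and CHO-S). Msh3 lies at or near 0 in A0 and A1 and at 32.0 to 56.0 CPM in CHO-S.

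A further list of 59 genes of these pathways, 57 of them with counts, was read beside the members. In stationary A1 against A0, 25 of 56 tested were higher and 4 lower, against 16% and 17.7% of all genes. The median of the list was 0.297. Brip1, a helicase that binds Brca1, was higher by 1.06 ± 0.22, Dna2, a resection nuclease, by 1.25 ± 0.25 and Rpa1, Rpa2 and Rpa3, the subunits that coat single-stranded DNA, by 0.58 ± 0.08, 0.61 ± 0.11 and 0.68 ± 0.12. The 4 that were lower were Uimc1, Brcc3, Mlh3 and Hus1. In exponential phase the median was -0.018, with 9 higher and 7 lower, against 12% and 13.8% of all genes. Fancl, the ubiquitin ligase of the Fanconi core complex, gave the largest of these at 2.17 ± 0.13, and was higher by 1.74 ± 0.13 in stationary phase too. Lig3, the ligase of an alternative joining route, was higher at both phases (0.89 ± 0.09 and 0.76 ± 0.07). For the interaction 19 of 56 were positive and 0 negative by edgeR or DESeq2, with 2 negative at an unadjusted p under 0.05. Of all genes, 5.04% were positive and 3.9% negative.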

How the data were processed

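Poly(A) RNA-seq libraries (24) of 20 cultures were prepared with a stranded kit. Per the study's methods the authors aligned reads with STAR 2.5.4b to the assembly C_griseus_v1.0 and counted them with HTSeq-count 0.7.2. The deposited values are raw counts per gene, and the 5 summary lines were kept out of tests. Here, A0 exponential libraries of a culture number were summed. Differences were tested by the two-sided quasi-likelihood test of edgeR 4.0.16, run in R 4.3.3 after TMM scaling, on genes whose counts varied and reached 1 in no fewer than 2 cultures. P-values were adjusted over all genes by Benjamini-Hochberg, with a threshold of 0.05. Each comparison used its own groups, and interactions used 4. The SE is the log2 fold change over the root of F. Total counts set the precision, and the floor of 3 counts covers counting error only. Alternatives were DESeq2 1.42.0 defaults, RLE normalization, other filters, a replicate block, all 6 groups in 1 fit, A0 subsets and leaving out each culture. Procedures were tested on simulated data. Values per culture are given for the 8 largest changes of A1 against A0, the 6 largest of the interaction and the 4 largest against CHO-S. They are also given for genes said to be chosen later. Those printed for Lig4, Prkdc, Rad51b, Rad50 and Parp1 lie outside these choices and were not fixed beforehand. Members and lists were chosen with earlier results of these data known. Culture numbers of A0 correlated between phases (r = 0.424, 0.313, 0.266 and 0.19 for numbers 1 to 4) and were taken to pair those cultures, although numbers 3 and 4 correlated as well or better with another number (0.27 and 0.322). The block left the count of the A0 phase change at 29 and moved that of the A1 and A0 interaction from 15 to 22. The share of all genes called moved from 37.7% to 42.7% and from 8.94% to 16.4%. The numbers did not pair other groups. No sequences were used here. Some genes of the further list are not reported here by name. Python 3.11.15 with pandas 2.3.3 and numpy 2.4.6 made the tables.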

Additional observations from a re-analysis of the deposited data

Results flagged for a closer look

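In groups of 4 cultures, a culture was singled out when its gap to the nearest other, divided by the range of the group, was above Dixon's critical value for 4 samples. This held for 5 of 72 groups, where chance gives 3.6. In exponential A0, culture 4 was low for Chek1 (0.987), Rbbp8 (0.889) and Rad51c (0.927) and high for Xrcc3 (0.842). In stationary A0, culture 1 was low for Prkdc (0.876).

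The change with phase differed between lines by the interaction test for the following members, given as log2 differences. For A1 against A0 these were Chek1 (0.53), Rad50 (0.67), Exo1 (0.95), Blm (0.59), Bard1 (0.85), Brca2 (0.72), Palb2 (0.54), Rad51ap1 (1.00), Rad51b (0.60), Rad51c (0.69), Rad54l (0.89), Xrcc3 (1.01), Fanca (0.71), Fanci (1.10) and Pms2 (0.75). For A0 against CHO-S they were Brca1 (0.66) and Xrcc3 (-1.08). For A1 against CHO-S they were Chek1 (0.53), Exo1 (1.41), Blm (0.74), Brca1 (0.64), Palb2 (0.87), Rad51ap1 (0.65), Rad51b (0.80), Rad52 (0.79), Rad54l (0.84), Parp1 (0.63), Polq (1.21), Fanca (0.82), Fancc (1.25), Fanci (0.70) and Pms2 (0.86). These interactions share the cultures of each line, and those with CHO-S include stationary culture 1.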

How the results depend on the processing

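Of the called values of single members, 1529 stayed called under the alternatives and 124 were lost, and when 1 culture was left out 1365 stayed and 328 were lost, none with a change of direction. Values not called were followed only in A1 against A0 at both phases and in the interaction of A1 and A0. Of these, 58 became called under the alternatives in the same direction, and 2 reversed. These were Chek1 and Msh6 in stationary A1 against A0, each called in opposite directions by the A0 culture pairs. Chek1 gave 0.22 (edgeR adjusted p = 0.044) with A0 cultures 1 and 2 alone and -0.28 (0.012) with cultures 3 and 4 alone, and Msh6 gave 0.26 (0.006) and -0.19 (0.044). Counts of members called moved by over 1.5 times as follows. With A0 cultures 1 and 2 alone, A0 against CHO-S in stationary phase gave 9, the interaction of A1 and A0 27 and that of A0 and CHO-S 5. The shares of all genes called were 30.2%, 22.7% and 9.97%. With A0 cultures 3 and 4 alone the interaction of A0 and CHO-S gave 0 (11 at an unadjusted p under 0.05), against 5.5%. With all 6 groups in 1 fit, the phase change of A1 gave 8 and the interaction of A1 and A0 9, against 11.6% and 4.56% of all genes. The replicate block gave 9 for A0 against CHO-S in stationary phase, 5 for the phase change of CHO-S and 4 for the interaction of A1 and CHO-S. In these 3 fits 26.5%, 2.02% and 2.63% of all genes were called. The numbers do not pair those samples, and the block moved no other count by that much, with 22 for the interaction of A1 and A0. Leaving out 1 culture gave 7 to 14 for exponential A1 against A0, 10 to 24 for stationary A0 against CHO-S, 0 to 31 for the phase change of CHO-S, and 7 to 18, 0 to 4 and 9 to 26 for the interactions of A1 with A0, A0 with CHO-S and A1 with CHO-S. In the same order, 16% to 30.8%, 29.4% to 51.8%, 0% to 47.7%, 4.81% to 12.8%, 6.61% to 17.2% and 4.01% to 25.4% of all genes were called. The 0 for CHO-S, without exponential culture 2, stood at 25 at an unadjusted p under 0.05. The cause of these changes was not tested, apart from the fewer samples of the subsets. The depth of stationary CHO-S culture 1 limits what it shows of low genes such as Nhej1 and Fancc.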
